A study of Homo sapiens with 6 samples.

Results

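TK1, E2F8, PRIM1 and RFC4 are genes of the G1/S transition and of DNA replication, and all 4 were listed higher in shLOXL2 than in shControl MDA-MB-231 cells by the authors' deposited table of log ratios. They were picked as the entries of that table with these names, and each had 1 of its 724 entries. MDA-MB-231 is an established human breast cancer line of mesenchymal character that lacks the oestrogen receptor. A lentivirus had brought in either shLOXL2, a short hairpin against LOXL2 (3 arrays), or shControl, a control hairpin (3 arrays), and total RNA was hybridised to Affymetrix whole-transcript arrays. LOXL2 is a secreted copper-dependent oxidase of lysines in collagen and elastin. The source name of 2 of the 3 control arrays, replicates 2 and 3, says shLOXL2, whereas their titles and knockdown field say control, and they were kept as controls. Whether the replicates came from separate cultures is not given in the sources used here, so p-values reflect the spread among the 6 arrays alone, and that spread may be technical.

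Cells commit to division when E2F transcription factors are released from the RB proteins and switch on the genes of S phase. TK1, thymidine kinase of the cytosol, salvages thymidine for the dTTP pool and is made mainly in dividing cells around S phase. E2F8 is an atypical E2F that binds DNA without a DP partner and represses E2F targets later in S phase. PRIM1 is the catalytic subunit of primase, which lays down the RNA primers that DNA polymerase alpha extends. RFC4 is a subunit of replication factor C, the clamp loader that places the PCNA ring on primed DNA.

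The promoters show which sequence motifs of cell cycle genes lie near the starts of these genes. RefSeq windows (GRCh38.p14) from 250 bases before to 50 bases after a start were matched by symbol for TK1, PRIM1 and RFC4, and E2F8 had no window here. RFC4 is shown upstream of its start (chr3:186806483-186806732, minus strand), PRIM1 likewise (chr12:56752324-56752573, minus strand), and TK1 for the 30 bases before the inner of its 2 starts (chr17:78187053-78187082, minus strand). Capitals mark the E2F-like core TTCCCGC on either strand and the CCAAT box.
RFC4: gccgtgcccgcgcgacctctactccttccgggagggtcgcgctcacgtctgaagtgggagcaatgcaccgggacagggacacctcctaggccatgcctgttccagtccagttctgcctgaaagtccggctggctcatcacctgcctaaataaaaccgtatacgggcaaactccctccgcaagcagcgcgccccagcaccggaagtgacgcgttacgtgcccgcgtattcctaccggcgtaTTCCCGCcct
PRIM1: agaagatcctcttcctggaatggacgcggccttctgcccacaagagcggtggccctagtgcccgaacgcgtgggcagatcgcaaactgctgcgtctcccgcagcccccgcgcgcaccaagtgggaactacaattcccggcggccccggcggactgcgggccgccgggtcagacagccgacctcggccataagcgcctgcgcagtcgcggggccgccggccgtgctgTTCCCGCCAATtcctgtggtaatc
TK1: tggtttaaagcggtcggcGCGGGAAccagg

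All 3 genes held the core within 25 bases before a start. It began at base -10 in RFC4, at base -24 in PRIM1 and, on the opposite strand, at base -12 of the inner start of TK1. RFC4 held a second match at base 23 after its start. In PRIM1 the core shares a base with a CCAAT box at base -18, and in RFC4 it overlaps a GC box (GGGCGG, on the opposite strand) that begins at base -7. TK1 held CCAAT boxes at bases -77 and -46 of the inner start, and the window of its outer start held neither the core nor a CCAAT box. Both boxes are common, the CCAAT box being in 34.6% and the GC box in 45.0% of all windows. The 7-letter core was chosen after these sequences had been seen, and 6.55% of all 35116 windows held it. The 8-letter E2F motif, searched as TTTCCCGC, TTTGGCGC, TTTCGCGC or TTTGCCGC on both strands, was in none of the 4 windows and in 3.31% of all windows. A match is a description of the letters and not a measured binding site.

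**Figure D1:**
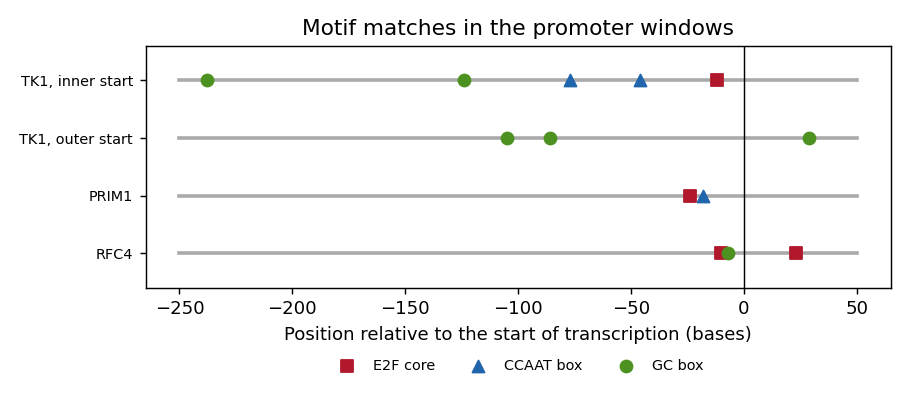
Matches of the E2F-like core, the CCAAT box and the GC box in the promoter windows of TK1 (2 starts), PRIM1 and RFC4, by position in bases relative to the start. The core lies at -12, -24 and -10, and RFC4 has a second match at 23.

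The same motifs set these promoters beside those of the mitotic genes. The cell cycle genes homology region (CHR, searched as TTTGAA or TTCGAA on both strands) is known as an element of promoters active in G2 and mitosis. It was in none of the 4 windows of TK1, PRIM1 and RFC4. Of the 41 G2 and mitosis genes that the authors' deposited table held and that had a window, 31 (75.6%) had a CHR match, against 19.5% of all genes with a window. The other listed G1/S and replication genes were mixed, since ASF1B, DBF4 and POLE3 had a CHR match. With TK1, PRIM1 and RFC4 counted in, 3 of the 9 listed genes with a window had one (33.3%), as did 12 of 91 of the list genes without an entry (13.2%). Among all genes listed higher, mitotic ones included, the share was 98 of 308 (31.8%), near that of the 9. Among genes listed lower it was 33 of 193 (17.1%). The E2F-like core was in 5 of the 41 mitotic genes (12.2%), against 7.82% of all genes with a window. It was also in 43 of the 308 genes listed higher and in 27 of the 193 listed lower. The share of the mitotic genes was thus not above that of listed genes in either direction. Among genes of the G1/S and replication lists that had a window but no entry in the authors' deposited table, 29 of 91 (31.9%) held the core, so it was not confined to the listed ones. The 8-letter E2F motif was in 35 of these 91 (38.5%) and in 1 of the 9 listed genes (11.1%). The median GC content of all windows was 58.7%, and the windows of TK1, PRIM1 and RFC4 had 63.3% to 69.0%.

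LOXL2, against which the hairpin was directed, had the lowest value of the authors' deposited table, namely -3.039. The header states neither log base nor direction, and the direction was read from LOXL2, so that a positive value is higher in shLOXL2 cells. This entry is therefore no separate check of the knockdown. Folds are given as if the log ratios of the authors' deposited table were log2. The table carries no replicate error, so its values have no SD and no test, and the entry of each gene is the value that chose it.

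TK1 stood at a log ratio of 0.747 by the authors' deposited table, 1.68-fold if log2. It took place 114 of the 412 entries listed higher by the authors' deposited table, and 27.4% of these stood above it. Thymidine kinase was thus in the upper part of the list, next to ACBD7 at 0.751 and SPCS2 at 0.745 in the authors' deposited table. The authors' deposited table typed 34 entries as kinase, 22 of which were listed higher, and TK1 was in place 10 among them.

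The other members of the set stood lower in the order. E2F8 had 0.614 in the authors' deposited table, 1.53-fold if log2, in place 250 and equal to EIF4E2. The entry next above it in the authors' deposited table was KIF24, a kinesin, at 0.615. PRIM1 had 0.582 in the authors' deposited table, 1.50-fold if log2, in place 311, between RNF5 at 0.583 and BST2 at 0.581. It is the only member with a drug in the authors' deposited table, fludarabine phosphate, a nucleotide analogue that blocks DNA synthesis, and 25 entries had one. RFC4 had 0.565 in the authors' deposited table, 1.48-fold if log2, in place 351 and equal to POLB, the polymerase of base excision repair. Its nearest other neighbours in the authors' deposited table were NCAPG at 0.566, a condensin subunit, and an entry spelled SERPI3 at 0.564. As spelled, SERPI3 matched no gene symbol, and with the letters NA put back it matched SERPINA3 alone. Likeness here is that of 1 log ratio per gene and says nothing of a shared pattern over samples.

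E2F8, PRIM1 and RFC4 lay below the median of all entries listed higher in the authors' deposited table, 0.649, and TK1 above it. The 4 genes spanned 0.182, from 0.565 to 0.747, with a median of 0.598 in the authors' deposited table. No entry of the authors' deposited table listed higher was below 0.537, so RFC4 was close to the smallest size that was listed. The share listed higher among the 650 genes counted in the authors' deposited table was 57.5%, and the 4 genes were chosen from the table with their direction known, so nothing is read from their shared sign. Bulk RNA cannot tell a larger share of cells in S phase from more RNA per cell.

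**Figure D2:**
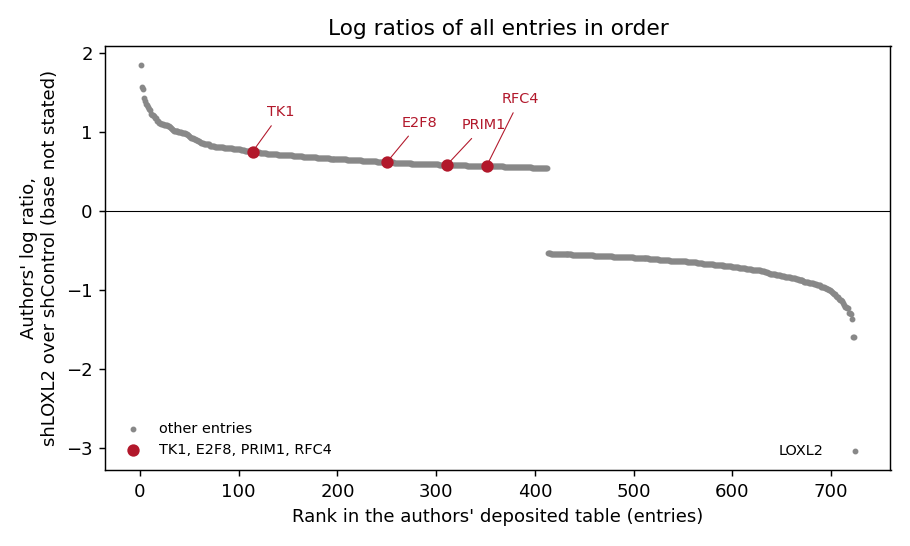
Log ratio of all 724 entries of the authors' deposited table (vertical axis, base not stated, shLOXL2 over shControl) against their rank. TK1, E2F8, PRIM1 and RFC4 (red) stand in places 114, 250, 311 and 351, and LOXL2 is the lowest entry at -3.039.

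Of 29 partners of these proteins, 1 was in the authors' deposited table (3.45%), a share near the 3.03% of all RefSeq protein-coding genes that had an entry there. None of the 4 partners of PRIM1 in the primase and polymerase alpha complex and its docking factor, none of the 10 other subunits and relatives of the clamp loader and its clamp, and none of the 7 relatives and regulators of E2F8 was in the authors' deposited table. Of 8 genes that work with TK1 in nucleotide supply, 1 was in the authors' deposited table, SAMHD1, which breaks down dNTPs, at 0.597. A gene that is not an entry has no value here, which does not say that it did not differ.

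Across 8 role lists with 118 genes, the authors' deposited table held 10 (8.47%), namely 9 listed higher and 1 lower, with a median of 0.589. Of all RefSeq protein-coding genes, 3.03% had an entry in the authors' deposited table and 1.83% were listed higher there, although not every gene need be on the array. Without TK1, E2F8, PRIM1 and RFC4, the authors' deposited table held 6 of the 114 others (5.26%), 5 listed higher and 1 lower.

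The 6 others have different roles. ASF1B, a chaperone that hands histones to new DNA, had the highest value of the 10 in the authors' deposited table, 0.792. POLE3, a histone-fold subunit of DNA polymerase epsilon, had 0.625 in the authors' deposited table. DBF4, the activator of the CDC7 kinase that fires origins, had 0.562 in the authors' deposited table, and CDKN1B (p27), an inhibitor of cyclin-dependent kinases, had 0.568. TOPBP1, a scaffold of replication initiation and of ATR checkpoint signalling, had the only negative value of the 10 by the authors' deposited table, -0.556. Thus 2 of 12 polymerase and primase genes, 2 of 18 genes of nucleotide supply, 2 of 29 licensing and helicase genes, 1 of 11 clamp and loader genes, 1 of 18 genes of the E2F and RB family, 1 of 12 genes of the lagging strand and chromatin assembly, 1 of 7 inhibitors of cyclin-dependent kinases and none of 11 G1/S cyclins and kinases were in the authors' deposited table.

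**Figure D3:**
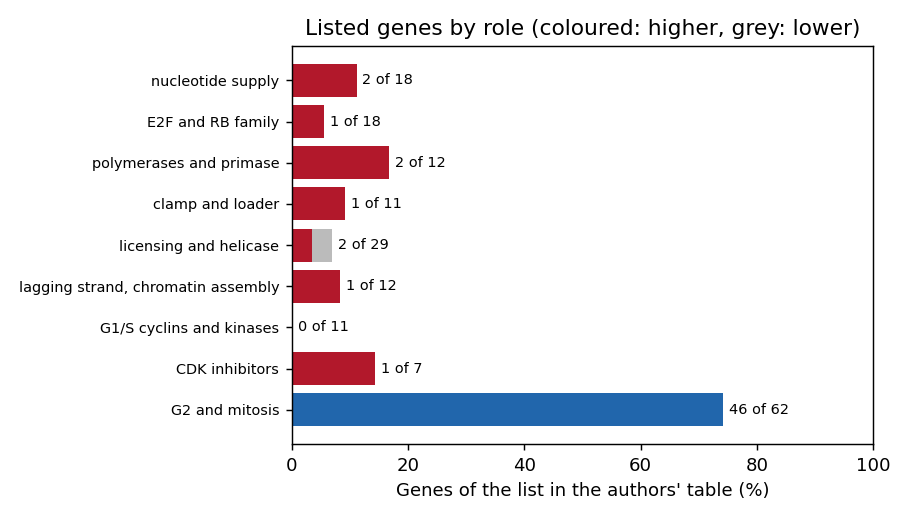
Share of the genes of each role list that the authors' deposited table held (horizontal axis, percent; number of genes beside each bar). The lists of G1/S and replication hold 0 to 2 entries each, and the G2 and mitosis list 46 of 62.

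More genes of the G2 and mitosis list had an entry. The authors' deposited table held 46 of its 62 genes (74.2%), all 46 listed higher, with a median of 0.784. Its 3 highest genes in the authors' deposited table were the kinesin KIF20A at 1.392, the cyclin CCNB2 at 1.343 and the kinase subunit CKS2 at 1.224. By log ratio in the authors' deposited table, 27 of the 46 mitotic genes were above TK1, 41 above E2F8, 43 above PRIM1 and 44 above RFC4. These are descriptions of lists chosen with earlier results of the same table known, with no test.

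**Figure D4:**
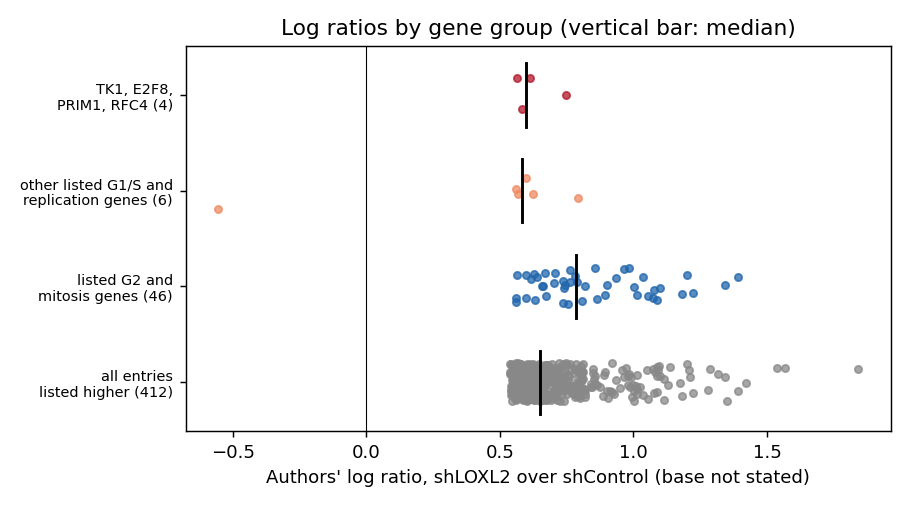
Log ratios in the authors' deposited table (horizontal axis, base not stated) of the 4 genes, of the 6 other listed G1/S and replication genes, of the 46 listed mitotic genes and of all 412 entries listed higher, with each median as a bar. The medians are 0.598, 0.583, 0.784 and 0.649.

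Some entries of the authors' deposited table had lost letters. None of its 724 IDs contained the letters NA in sequence, which 1.86% of protein-coding symbols contain. Of 29 entries that matched no gene symbol, 13 matched one when these letters were put back. One of them, CC2 at 0.905 in the authors' deposited table, matched both CCNA2, the cyclin of S phase and G2, and NACC2. It was therefore left unnamed and counted in no list. The names of TK1, E2F8, PRIM1 and RFC4 do not hold these letters.

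The 4 genes lie on chromosomes 17, 11, 12 and 3. Within 100 kb of them RefSeq places 42 other genes, 18 of them protein-coding, and none was a named entry of the authors' deposited table. With entries for 3.03% of protein-coding genes in all, a count of 0 among 18 is near that background. By the location column of the authors' deposited table, E2F8, PRIM1 and RFC4 are nuclear and TK1 is cytoplasmic. The authors' deposited table listed 148 of 182 nuclear entries (81.3%) and 110 of 194 cytoplasmic ones (56.7%) as higher, against 56.9% of all entries. It was so for 30 of 60 extracellular entries, 37 of 84 of the plasma membrane and 76 of 174 of unknown location in the authors' deposited table.

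On the arrays the 4 genes could not be followed in single samples, because the 32321 probe sets carry numbers and no source used here pairs them with genes. A match by value does not name them, since 1 probe set had a mean difference within 0.0005 of the log ratio of TK1, 2 that of E2F8, 2 that of PRIM1 and 5 that of RFC4, and the log ratios need not be these group means. If the log ratios are log2, the arrays do show the replicate error of differences of this size, over all probe sets. Probe sets that do not measure genes, if any, could not be set apart without annotation. Between 2 arrays of the same group, 9.80% to 16.8% of probe sets differed by at least 0.565 in either direction, and 5.12% to 9.23% by at least 0.747. These shares are of single arrays in either direction and are not on a par with the 1-direction shares of group means given next.

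Between the groups, 1.63% of probe sets had a mean difference of at least 0.565 on the log2 scale in favour of shLOXL2, and 0.541% one of at least 0.747. The 352 probe sets with a difference from 0.565 to 0.747 had a median standard error of 0.271 (n = 3 arrays per group). Of these 352, 154 (43.8%) had every shLOXL2 array above every shControl array, against 4.53% of all probe sets. In 298 of them (84.7%) shLOXL2 was higher in all 3 pairs of equal replicate number, against 14.1% of all probe sets. The labels do not state that arrays of equal number are pairs. The 352 probe sets were picked by their difference, so these shares describe their spread and are no test. None of the 352 passed an adjusted p of 0.05 by limma (lowest adjusted p = 0.624 by limma), and 174 had an unadjusted p under 0.05.

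**Figure D5:**
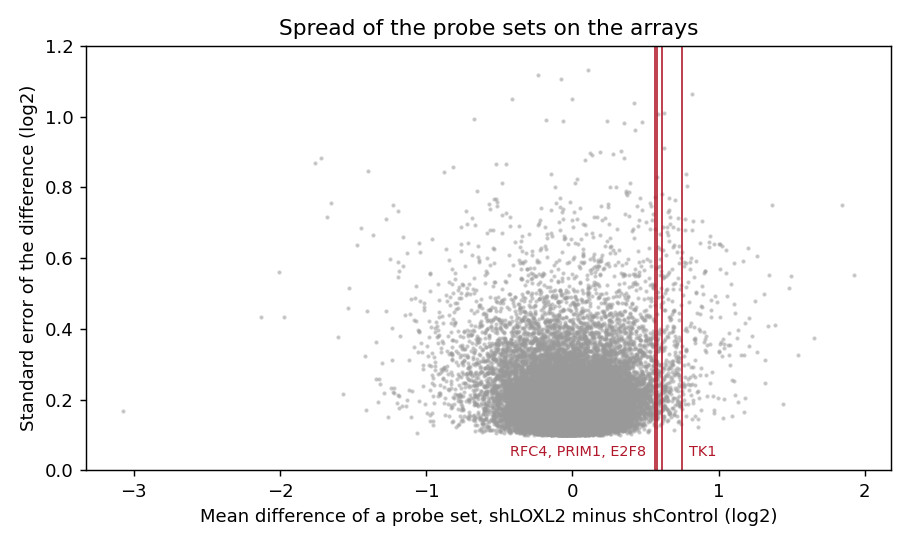
Standard error against mean difference (both log2) of all 32321 probe sets, shLOXL2 minus shControl, with red lines at the authors' log ratios of RFC4, PRIM1, E2F8 and TK1. The lines are drawn as if these log ratios, whose base is not stated, were log2. Probe sets between the outer lines have a median standard error of 0.271.

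Over all probe sets, 1 of 32321 (0.00309%) was called at an adjusted p of 0.05 by limma, an unnamed one with a mean of 8.08 in shLOXL2 and 11.16 in shControl cells. Its difference was -3.08 (SE 0.167, adjusted p = 0.0126 by limma). No probe set was called when any 1 of the 6 arrays was left out (lowest adjusted p = 0.0676 to 0.149 by limma, with an unadjusted p under 0.05 for 1063 to 2250). Nor was any called against the single control array of undisputed label, replicate 1 (lowest adjusted p = 0.257 by limma, with an unadjusted p under 0.05 for 3975). The median log2 value of an array was 5.74 to 5.77 in shLOXL2 and 5.77 to 5.82 in shControl cells. Precision is limited by the small number of arrays. Of 6 markers of the line (VIM, FN1, CDH2, ZEB1, AXL and CD44) and 9 of blood, fibroblast and endothelial cells, none was in the authors' deposited table. Of 6 luminal or epithelial markers (ESR1, PGR, CDH1, EPCAM, KRT8 and KRT18) the authors' deposited table held EPCAM alone, at 0.631. Being an entry concerns a difference between the groups and not a level, so these counts are no check of the line. The identity of the line could not be checked without named probe sets.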

How the data were processed

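Total RNA was measured on 6 Affymetrix arrays. The deposited values are log2, and the submitters' processing notes name RMA, for which the sources used here give no version, genome build or annotation. A second deposited table holds the authors' log ratio, a score whose base, direction and selection are not stated, exported from Ingenuity Systems software per the file headers. Decimal commas were converted and question marks read as minus signs, which left all 724 entries in falling order with 0 breaks. Of these, 695 matched 651 RefSeq genes (GRCh38.p14, for names and neighbours) by current symbol, or by an older one that the table repeats. Entries of a gene were averaged, and 1 gene with both signs was left out of counts.

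The arrays were analysed with limma 3.58.1 in R 4.3.3, in 1 fit across 32321 probe sets with a term for group and Benjamini-Hochberg adjustment. The code was first run on simulated arrays with independent errors, without the shared deviations described next. That run checked the code, and no recovery at the size of the 4 genes was required of it. Arrays of the same replicate number deviated together (correlations 0.354, 0.452 and 0.160 for replicates 1, 2 and 3). Arrays of different number were not compared in this way, so these values do not establish a pairing. The labels do not state one either, and the block by number was an alternative. The planned rows of the 4 genes on the arrays were not obtained, because no table paired probe sets with genes. The 4 genes and all lists were chosen with earlier results of these data known. Named genes are these 4, their listed partners, their nearest entries in the order of log ratios, and the 3 largest of each list, except 1 entry that is not reported here.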

Additional observations from a re-analysis of the deposited data

How the results depend on the processing

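The call of 1 probe set, the same one each time, held under quantile normalization, median centring, a filter at the median level and the replicate block (1 call with the block, at 2964 probe sets with an unadjusted p under 0.05, against 1781 without it, by limma). The block changed no other call. There were 0 calls by limma with shControl replicate 1 alone as control (3975 at an unadjusted p under 0.05; the spread of a lone control is taken from the other group) and 0 to 0 calls with any 1 array left out (1063 to 2250 at an unadjusted p under 0.05). If the authors' log ratios were natural logs, the folds by the authors' deposited table would be 2.11 for TK1, 1.85 for E2F8, 1.79 for PRIM1 and 1.76 for RFC4. LOXL2 would then be 20.9-fold lower, a larger fall than any probe set had on the arrays, where the largest was -3.08 (log2). As log2, the LOXL2 entry would be 8.22-fold lower. Counted over genes in place of entries, TK1, E2F8, PRIM1 and RFC4 were in places 104, 224, 281 and 321. The counts of listed G1/S genes (10) and mitotic genes (46) did not move with current symbols alone or, chosen after seeing the data, with the letters NA put back. CC2, which matched 2 genes, was left unnamed, so these counts do not cover the case that it is CCNA2. The share of windows with the E2F-like core, 6.55%, was 5.52% upstream of the start alone, and 3.31% for the 8-letter motif, also chosen after seeing the data.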
